A study of Mus musculus with 12 samples.

Results

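The genes described here are 33 components of protein folding in the endoplasmic reticulum (ER) and of the unfolded protein response. They were found by gene symbol, ignoring case, among 22416 genes in a count table from mouse embryonic stem cells. All 33 were present, and all 33 were among the 13239 genes with enough counts to be tested. They comprise 5 heat shock chaperones and exchange factors, 4 J-domain co-chaperones or partners, 6 disulfide and proline isomerases, 3 genes of the glycoprotein folding cycle, 2 stress sensors with Xbp1, 9 genes of ER-associated degradation and 3 translocon genes.

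RNA was sequenced from eIF2α A/A knock-in (KI) cells in LIF, eIF2α +/+ (WT) cells in LIF, KI cells in LIF/2i and WT cells in LIF/2i, with 3 libraries a group and 6 days in each medium. KI cells carry 2 copies of an allele of Eif2s1 that puts alanine in place of the serine of eIF2α phosphorylated by stress kinases. LIF is leukaemia inhibitory factor, and 2i stands for the inhibitors PD0325901 (of MEK) and CHIR99021 (of GSK3). All 4 groups shared LIF and a serum-free base medium with serum replacement, and the study asked how eIF2α phosphorylation affects naive pluripotency. RNA came from the supernatant of spun cycloheximide-treated lysates, so RNA left in the pellet was not measured. The labels give no line or clone and do not say whether replicates were separate cultures, and the spread behind each p-value may therefore be technical.

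Proteins that enter the secretory pathway cross the ER membrane through the Sec61 translocon and fold with the help of the chaperone BiP, encoded by Hspa5, and of calnexin, calreticulin and protein disulfide isomerases. When unfolded proteins accumulate, 3 membrane sensors respond. PERK phosphorylates eIF2α, IRE1α (Ern1) splices the mRNA of Xbp1, and ATF6 (Atf6) is cleaved to release a transcription factor. XBP1 and ATF6 are known to turn on ER chaperone and degradation genes through ER stress response elements, and the eIF2α branch acts on some of these genes through ATF4. PERK itself is not among the 33 genes.

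Libraries held 2307219 to 9713857 counts, and the 33 genes took 0.65% to 0.836% of them. The difference between WT LIF replicates 1 and 3 was below the sampling noise (chi-square per degree of freedom 0.858, against 2.61 to 40.2 for other pairs of replicates), and their mean is used as 1 sample. This leaves 2 samples in the WT LIF group, 3 in each other group and 11 in all. The 9 pluripotency markers, none at 0 in any group, summed to 2728 to 2768 TMM-scaled CPM (read counts relative to library size) in KI LIF and 2276 and 2486 CPM in WT LIF, below the 3540 to 4110 CPM in KI LIF/2i and 3585 to 3795 CPM in WT LIF/2i. In each genotype 4 of the 9 passed, lower in LIF. The sum of 10 feeder fibroblast markers set WT LIF replicate 2 apart, with 404 CPM, against 37.1 CPM in the mean of WT LIF replicates 1 and 3, 98.3 to 151 CPM in KI LIF, 15.7 to 30.7 CPM in KI LIF/2i and 6.53 to 9.73 CPM in WT LIF/2i. Lum was at 0 in every group but WT LIF. KI replicate 1 stood apart from the other KI libraries in the summed CPM of 172 Y-linked genes, with 41.6 in LIF and 49.6 in LIF/2i. The other 4 KI libraries had 3.25 to 6.50. WT libraries had 52.3 to 287, and WT replicate 2 was lowest in each medium. It had 85.0 in LIF, against 174 and 164 in WT LIF replicates 1 and 3. In LIF/2i it had 52.3, against 280 and 287 in WT LIF/2i replicates 1 and 3. Eif2s1 itself had 36.0 to 38.0 CPM in KI LIF and 28.5 and 32.6 CPM in WT LIF. LIF/2i values were 31.0 to 57.6 CPM in KI and 23.3 to 28.0 CPM in WT samples. A single codon change cannot be read from these counts, and the genotype labels are not checked by them.

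Levels of the 33 genes per kilobase of coding sequence spanned more than 2 orders of magnitude. The span is that wide only with Sec61b, the lowest gene, whose level is uncertain. The lectin chaperones Canx and Calr led with means over the 11 samples of 513 and 495 CPM per kilobase. Pdia3, the disulfide isomerase that works with them, followed with 489, Hsp90b1, which encodes the ER member of the HSP90 family (GRP94), with 419, and Hspa5 with 397. Xbp1 ranked 13 of 33 with 142 CPM per kilobase. The sensors were far lower, Atf6 at 25 and Ern1 at 8.48 CPM per kilobase, and so was Herpud1 at 10.3. The lowest values were those of Dnajb9 and Sec61b, at 5.42 and 2.91 CPM per kilobase. Of the 32 pairs of neighbours in this order, 32 overlapped in their ranges over the 11 samples. Coding sequence shared with other annotated genes makes some levels uncertain: 68.3% of the 25-base windows of Sec61b, 54.6% of those of Ppib, 51.4% of those of Dnajb9 and 45.7% of those of Derl1 occur in another gene's transcript, and Hsp90b1, Manf and Calr share 17.4%, 11.9% and 7.52%.

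**Figure D1:**
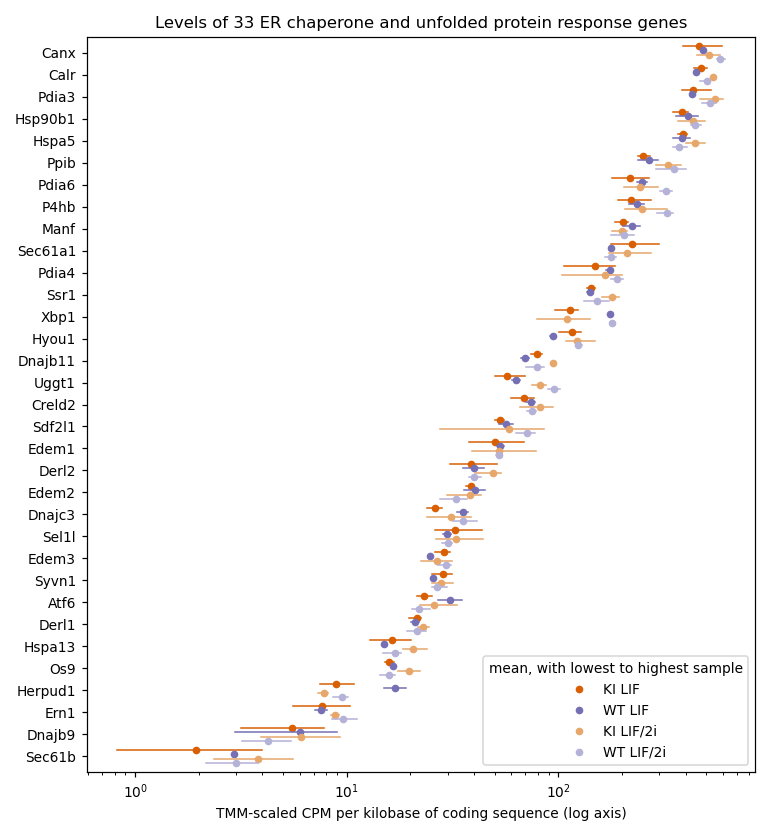
Level of each of the 33 genes in CPM per kilobase of coding sequence on a log axis, ordered by the mean over 11 samples. Points are group means (n = 3, and 2 in WT LIF) and lines run from the lowest to the highest sample; Canx is at the top with 513 and Sec61b at the bottom with 2.91, and for most genes the 4 groups lie close together.

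Most members varied less than 2-fold over the 11 samples. Of the 31 members that averaged at least 10 CPM, 25 (80.6%) had a highest sample less than 2-fold above the lowest. Of the 9206 tested genes with at least 10 CPM, 49.3% did. At 100 CPM or more it was 13 of 16 members (81.2%) and 66.2% of 2654 genes. The median ratio of highest to lowest sample was 1.68 for members and 2.01 for all genes from 10 CPM. From 100 CPM the medians were 1.65 and 1.74, a smaller difference. Beyond these lower bounds the sets are not matched for level. The ratio of highest to lowest sample was 1.27 for Calr, 1.42 for Hsp90b1 and 1.43 for Hspa5. It was 2.35 for Xbp1 and 2.59 for Herpud1. These shares are a description of the libraries, with no test.

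Hspa5 is the classic target of the response, with a nearly level mRNA here. Herpud1 and Uggt1 differed between media. KI and WT samples of Xbp1, like those of Herpud1 and Dnajb11, did not overlap in either medium. Promoters are shown for the 4 genes Hspa5, Herpud1, Xbp1 and Uggt1. Each runs 5′ to 3′ on the gene's strand from 250 bases before to 50 bases after the RefSeq start (GRCm38.p6), at chr2:34771840-34772139 (plus strand) for Hspa5, chr8:94386179-94386478 (plus) for Herpud1, chr11:5520391-5520690 (plus) for Xbp1 and chr1:36244253-36244552 (minus) for Uggt1. Capitals mark matches to 4 motifs searched on both strands: the ER stress response element ERSE (CCAAT and CCACG with 9 bases of any kind, N, between them), ERSE-II (ATTGG and CCACG with 1 base between them), the core of the unfolded protein response element (TGACGTGG) and a composite element bound by ATF4 with C/EBP partners (TGATGNAAN). ERSE and ERSE-II both end in CCACG and can share it.
Hspa5: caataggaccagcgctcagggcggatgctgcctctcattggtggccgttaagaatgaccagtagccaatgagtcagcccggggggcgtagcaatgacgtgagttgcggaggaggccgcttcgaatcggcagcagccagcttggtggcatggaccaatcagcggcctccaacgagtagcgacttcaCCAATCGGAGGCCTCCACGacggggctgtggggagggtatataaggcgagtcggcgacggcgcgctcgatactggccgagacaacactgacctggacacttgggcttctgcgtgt
Herpud1: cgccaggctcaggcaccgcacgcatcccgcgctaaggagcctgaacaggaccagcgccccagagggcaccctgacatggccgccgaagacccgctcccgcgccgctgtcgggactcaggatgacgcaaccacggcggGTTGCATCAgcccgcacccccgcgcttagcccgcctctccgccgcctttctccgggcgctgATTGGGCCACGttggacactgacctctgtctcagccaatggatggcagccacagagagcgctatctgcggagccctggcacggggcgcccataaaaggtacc
Xbp1: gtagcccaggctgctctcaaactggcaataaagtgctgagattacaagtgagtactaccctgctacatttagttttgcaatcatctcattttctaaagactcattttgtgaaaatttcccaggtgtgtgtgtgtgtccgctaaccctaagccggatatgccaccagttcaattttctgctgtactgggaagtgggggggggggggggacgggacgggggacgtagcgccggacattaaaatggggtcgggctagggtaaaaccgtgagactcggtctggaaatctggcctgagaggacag
Uggt1: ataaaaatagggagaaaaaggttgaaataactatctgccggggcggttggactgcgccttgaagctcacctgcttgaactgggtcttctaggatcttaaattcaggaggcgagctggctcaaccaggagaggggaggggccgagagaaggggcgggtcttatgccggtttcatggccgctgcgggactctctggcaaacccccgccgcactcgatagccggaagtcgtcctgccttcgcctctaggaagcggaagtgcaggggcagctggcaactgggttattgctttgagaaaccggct

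Of the 27 members with a promoter in the RefSeq set, 8 (29.6%) held an ERSE match, against 39 of 32851 promoters (0.119%). These were Hspa5, Hsp90b1, Dnajc3, Pdia6, Creld2, Calr, Canx and Syvn1. ERSE-II was matched in 2 of 27 (7.41%), Dnajb11 and Herpud1, against 12 of all promoters (0.0365%). The TGACGTGG core was in none of the 27 and in 0.676% of all promoters, and the ATF4 composite was in 1 (3.7%), Herpud1, and in 3.95% of all promoters. In Hspa5 the match begins at position -65 from the start. In Herpud1 the ERSE-II match begins at -52 and the ATF4 composite, on the other strand, at -113. None of the 4 motifs was found in the windows of Xbp1 and Uggt1. A match describes letters and is not evidence of binding. The 8 genes with an ERSE match had log2 fold changes between -0.45 and 0.25 in all 4 comparisons of genotype or medium. None of them passed the main test in any, where 0.144% to 13% of all genes did. Pdia6 passed between genotypes in LIF/2i under some alternatives given below. Of the 17 members with neither ERSE nor ERSE-II, 0 passed in each genotype comparison and 1 in each medium comparison.

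The first comparison asks how the ER genes differ between genotypes in LIF/2i. In the quasi-likelihood test of edgeR, with p-values adjusted by the Benjamini-Hochberg method, 0 of 33 members had an adjusted p under 0.05 in KI against WT, where 2.22% of all tested genes did. At an unadjusted p under 0.05 there were 2, Xbp1 and Pdia6, both lower, against 20.5% of all genes. limma-voom called 0 members (2.52% of all genes) and DESeq2 called 1, Xbp1 (6.92% of all genes). With the KI replicate number as a block 3 members passed, Xbp1, P4hb and Pdia6, and 10.3% of all genes. That block removes differences between KI replicates from the error, while genotypes are compared across replicates. The share of all genes called ran from 0.486% without WT LIF/2i replicate 1 to 7.58% without KI LIF/2i replicate 1. KI and WT samples did not overlap for 4 members higher in KI (11.7% of all genes) and 4 lower (11.1%), shares close to the background. The median log2 fold change of the members was 0.05, and that of all genes 0.02. For 30 of 33 members the 95% interval lay within a 2-fold change in either direction, against 56.3% of all genes. For 16 it lay within a 1.5-fold change, against 23.5% of all genes. Standard errors were smaller for members (median 0.18) than for all genes (median 0.26), and these shares are not matched for level.

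In LIF, 0 of 33 members passed in KI against WT, where 0.144% of all genes did. Xbp1 and Herpud1 had an unadjusted p under 0.05, both lower, against 10.7% of all genes. DESeq2 called 0 members and 1.56% of all genes, and limma-voom 0 members and 0.0831%. With the KI replicate number as a block 1 member passed, Xbp1, and 1.91% of all genes. With single libraries left out the share of all genes ran from 0.0076% to 0.401%. Groups did not overlap for 3 members higher in KI (16% of all genes) and 4 lower (15.8%). The median was -0.07, against 0.00 for all genes, and 29 of 33 intervals lay within a 2-fold change, against 53.8% of all genes. Median standard errors were 0.20 for members and 0.29 for all genes.

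Few members passed the test between LIF and LIF/2i. In KI cells 1 of 33 passed, Uggt1, lower in LIF, where 9.06% of all genes passed (4.05% higher, 5.01% lower). In WT cells 2 of 33 passed, Herpud1 higher and Uggt1 lower in LIF, where 13% of all genes passed (6.31% higher, 6.69% lower). With the KI replicate number as a block 1 member passed in KI (13.6% of all genes) and 5 in WT (20.2% of all genes). With single libraries left out, the share of all genes ran from 3.74% to 10.1% in KI and from 2.93% to 16.4% in WT. At an unadjusted p under 0.05 there were 4 members in KI (23.7% of all genes) and 5 in WT (27.5%). Fold changes were below 0 for 26 of 33 members in KI, with a median of -0.16 against -0.03 for all genes. In WT they were below 0 for 23 of 33, with a median of -0.07 against 0.01 for all genes. Groups did not overlap for 0 members higher and 6 lower in KI (13.3% and 13.9% of all genes), and for 2 higher and 10 lower in WT (24.3% and 24.5%). The 33 genes summed to 6347 to 7673 CPM in KI LIF against 7256 to 8486 CPM in KI LIF/2i, and to 6824 and 7269 CPM in WT LIF against 7703 to 8293 CPM in WT LIF/2i. The KI ranges overlap and the WT ranges do not. Pluripotency marker sums were lower in every LIF sample than in every LIF/2i sample, and their part in these differences was not tested.

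The interaction test asks whether the genotype effect differs between media. Of the 33 members, 0 had an adjusted p under 0.05, as did 0% of all genes, and 1 (Atf6) had an unadjusted p under 0.05, against 6.03% of all genes. DESeq2 called 0 members and 0.166% of all genes, and limma-voom 0 of both. The samples are whole cultures, so a smaller share of cells of one type and less RNA per cell cannot be told apart in any of these comparisons.

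**Figure D2:**
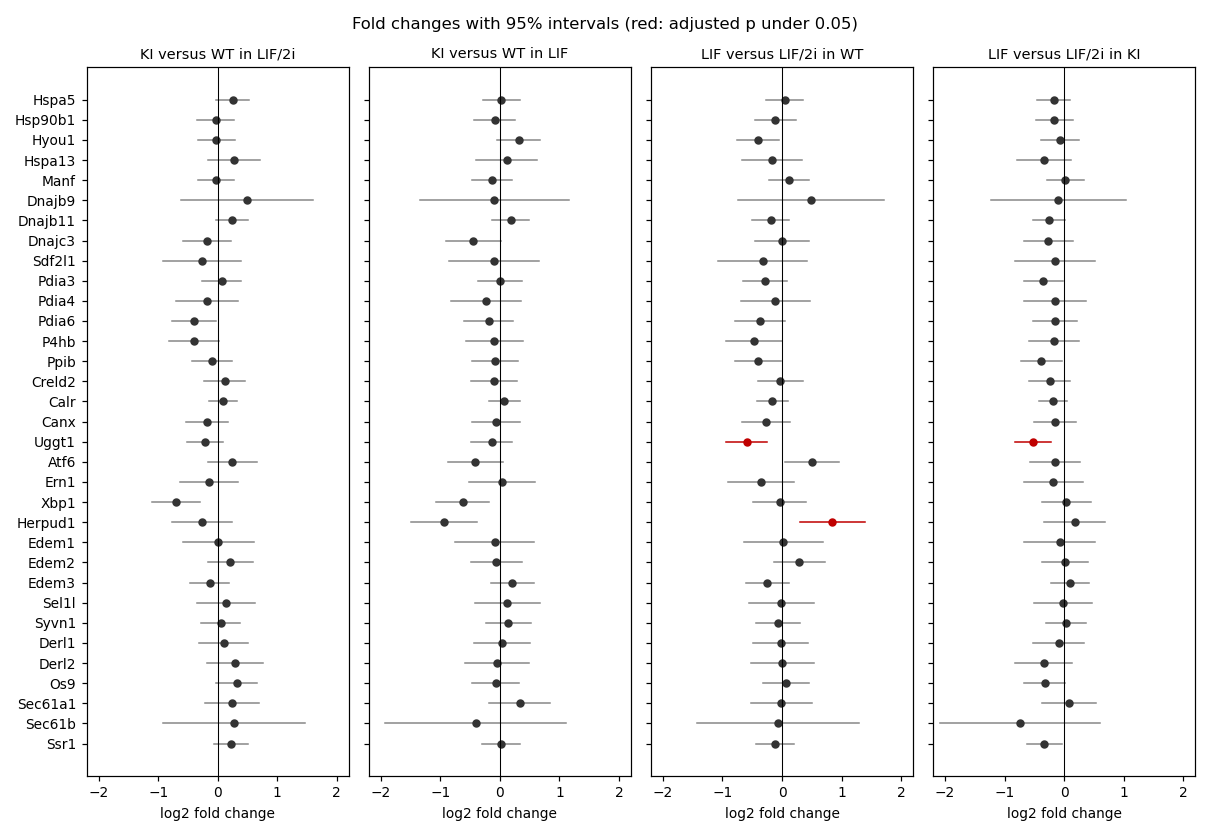
Log2 fold changes of the 33 genes with 95% intervals in the 4 comparisons, in order of role from chaperones at the top to translocon genes at the bottom; red marks an adjusted p under 0.05. Red is limited to Uggt1 in both medium comparisons and Herpud1 in WT, and most intervals include 0.

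Among the heat shock chaperones, Hspa5 (GRCm38 chr2:34771970-34777547, plus strand) had 778, 799.5 and 721 CPM in KI LIF and 819.9 and 683 CPM in WT LIF. In LIF/2i it had 835, 791 and 974 CPM in KI and 795, 703 and 684 CPM in WT samples. KI and WT samples overlapped in both media, although in LIF/2i only WT replicate 1 reached the KI range. The log2 fold change of KI against WT was 0.03 ± 0.14 (SE) in LIF (95% interval -0.28 to 0.34, adjusted p = 0.972) and 0.25 ± 0.13 in LIF/2i (95% interval -0.02 to 0.53, adjusted p = 0.281).

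Hsp90b1 had 988, 959.5 and 839 CPM in KI LIF, against 1100 and 869 CPM in WT LIF. Its LIF/2i values were 1192, 885 and 1048 CPM in KI, against 1132, 1022 and 1048 CPM in WT. KI and WT samples overlapped in both media. Hyou1, a large HSP70-related chaperone and exchange factor for BiP, was the member with the smallest unadjusted p among those higher in KI in LIF. It had 303, 383 and 364 CPM in KI LIF, above the 288 and 275 CPM in WT LIF, a log2 fold change of 0.31 ± 0.16 (adjusted p = 0.533). In LIF/2i the WT samples, at 365, 366 and 388 CPM, lay inside the KI range of 328 to 445 CPM. In WT cells the LIF samples were all below the LIF/2i samples. The log2 fold change was -0.40 ± 0.16 (adjusted p = 0.129, and 0.0375 with the KI replicate number as a block). That block covers KI samples only, and 20.2% of all genes passed with it, against 13% without it. Manf, an ER-resident growth factor, and Hspa13, another HSP70 family member, had fold changes of KI against WT between -0.13 and 0.28.

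The co-chaperones did not pass in any comparison. Dnajb11 and Dnajc3 encode J-domain proteins that stimulate BiP, and the product of Dnajc3, also called p58IPK, inhibits eIF2α kinases. Dnajb11 had 79.5 to 89.7 CPM in KI LIF, above the 71.9 and 78.4 CPM in WT LIF, and 99.2 to 104 CPM in KI LIF/2i, above the 75.7 to 92.4 CPM in WT LIF/2i. Its log2 fold change was 0.18 ± 0.14 in LIF and 0.24 ± 0.12 in LIF/2i (adjusted p = 0.711 and 0.298). Dnajc3 had 36.1 to 42.6 CPM in KI LIF, below the 50.5 and 56.9 CPM in WT LIF (-0.45 ± 0.21, adjusted p = 0.485). Sdf2l1, a partner of the J-domain proteins, ranged from 18.3 to 56.8 CPM within KI LIF/2i alone, and Dnajb9 stayed between 1.97 and 6.21 CPM.

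All 6 isomerase genes had fold changes below 0 in LIF against LIF/2i in both genotypes. Of all 13239 genes, 6968 were also below 0 in KI and 6542 in WT. None of the 6 isomerase genes passed the test. In KI they ran from -0.38 (Ppib, a proline isomerase) to -0.15, and in WT from -0.47 (P4hb, which encodes protein disulfide isomerase itself) to -0.03 (Creld2). Their summed level was 1649 to 2029 CPM in KI LIF against 2024 to 2340 CPM in KI LIF/2i, and 1915 and 1950 CPM in WT LIF against 2243 to 2537 CPM in WT LIF/2i. Pdia6, a disulfide isomerase that also binds the sensors, was 1 of the 2 members with an unadjusted p under 0.05 between genotypes in LIF/2i. It had 394, 311 and 272 CPM in KI, against 405, 429.6 and 459.8 CPM in WT. Every KI sample was below every WT sample, with a log2 fold change of -0.41 ± 0.17 (adjusted p = 0.204). With the KI replicate number as a block the value was -0.42 and the adjusted p 0.0274, and with single libraries left out the adjusted p ran from 0.0617 to 0.428. The block takes differences between KI replicates out of the error, and 10.3% of all genes passed with it. In LIF Pdia6 had 358, 279 and 239 CPM in KI and 351 and 316 CPM in WT samples, and the groups overlapped.

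In the glycoprotein folding cycle, Uggt1 (GRCm38 chr1:36140027-36244305, minus strand) passed in both genotypes. It encodes the glucosyltransferase that recognises misfolded glycoproteins and returns them to calnexin and calreticulin. Uggt1 had 323, 245 and 234 CPM in KI LIF, against 409, 349 and 391 CPM in KI LIF/2i. It had 307 and 281 CPM in WT LIF, against 473, 437 and 417 CPM in WT LIF/2i. Every LIF sample was below every LIF/2i sample of either genotype. The log2 fold change was -0.52 ± 0.14 in KI (adjusted p = 0.0393) and -0.59 ± 0.16 in WT (adjusted p = 0.03), and the interaction was 0.07 ± 0.21 (adjusted p = 0.986). The direction was the same with each library left out, and both calls depended on single libraries. In KI it no longer passed without KI LIF replicates 2 or 3, WT LIF replicate 2, KI LIF/2i replicates 1 or 3, or WT LIF/2i replicates 1 or 2, with adjusted p up to 0.171. In WT it no longer passed without WT LIF replicate 2 or WT LIF/2i replicates 1 or 2, with adjusted p up to 0.222. Leaving out WT LIF replicate 2 leaves 1 sample in that group, which is then assumed to vary like the other groups. DESeq2 called it in KI and WT with adjusted p = 0.0138 and 0.00532, where it called 12.3% and 16.7% of all genes. Canx and Calr, whose products bind the glycans that Uggt1's product marks, had fold changes of -0.15 and -0.18 in KI and -0.27 and -0.16 in WT, and neither passed.

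Among the 3 regulators, Xbp1 (GRCm38 chr11:5520659-5525893, plus strand) was the one whose KI and WT samples did not overlap in either medium. Its product, once the mRNA is spliced by IRE1α, turns on chaperone, degradation and secretory genes. It had 95.9, 98.9 and 77.4 CPM in KI LIF, against 143 and 138 CPM in WT LIF. LIF/2i samples held 114, 88.4 and 63.3 CPM in KI, against 142, 141 and 149 CPM in WT. All 6 KI samples were below all 5 WT samples. Within each medium, Herpud1 was also lower and Dnajb11 higher in KI without overlap. Of all genes, 15.8% were lower in KI without overlap in LIF and 11.1% in LIF/2i. The share of all genes with this in both media was not counted. The mean was 90.7 ± 11.6 CPM in KI LIF (SD, n = 3), against 140.1 ± 3.46 CPM in WT LIF (SD, n = 2), and 88.5 ± 25.2 CPM in KI LIF/2i, against 143.8 ± 4.21 CPM in WT LIF/2i (SD, n = 3 each).

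Sums of marker genes differed between genotypes in the same samples. The 17 primitive endoderm markers, none at 0 in any group, summed to 1208 to 1311 CPM in KI LIF and 1296 to 1310 CPM in KI LIF/2i, against 1572 and 1861 CPM in WT LIF and 1559 to 1670 CPM in WT LIF/2i. All 6 KI sums were below all 5 WT sums, and of the 14 tested markers 14 had fold changes below 0 in LIF, where 1 passed, and 13 in LIF/2i, where 0 passed. The 8 neuroectoderm markers summed to 211 to 223 CPM in KI LIF and 106 to 172 CPM in KI LIF/2i, against 104 and 125 CPM in WT LIF and 64.6 to 104 CPM in WT LIF/2i. KI sums were above WT sums in each medium, and 1 of 6 tested markers passed in each, while Neurog2 was at 0 in both KI groups. Their part in the level of Xbp1 was not tested.

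The log2 fold change of Xbp1 was -0.62 ± 0.21 in LIF (95% interval -1.07 to -0.18, adjusted p = 0.282) and -0.70 ± 0.18 in LIF/2i (95% interval -1.10 to -0.30, adjusted p = 0.0728), so neither passed. The interaction was 0.07 ± 0.28 (adjusted p = 0.988). In LIF/2i DESeq2 gave an adjusted p of 0.0136 and limma-voom 0.0608. With single libraries left out, the value ran from -0.94 to -0.52 and the adjusted p from 0.0119 to 0.167. The lowest p came without KI LIF/2i replicate 1, where the value was -0.94, and without the KI replicate 1 libraries of both media it was -0.93 with an adjusted p of 0.00655. With the KI replicate number as a block, the adjusted p was 0.0414 in LIF and 0.00489 in LIF/2i. That block takes differences between KI replicates out of the error, while genotypes are compared across replicates. With it 1.91% of all genes passed in LIF and 10.3% in LIF/2i. Between media the level of Xbp1 differed little, by 0.04 ± 0.19 in KI and -0.04 ± 0.21 in WT. The counts are per gene and do not separate spliced from unspliced Xbp1 mRNA.

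**Figure D3:**
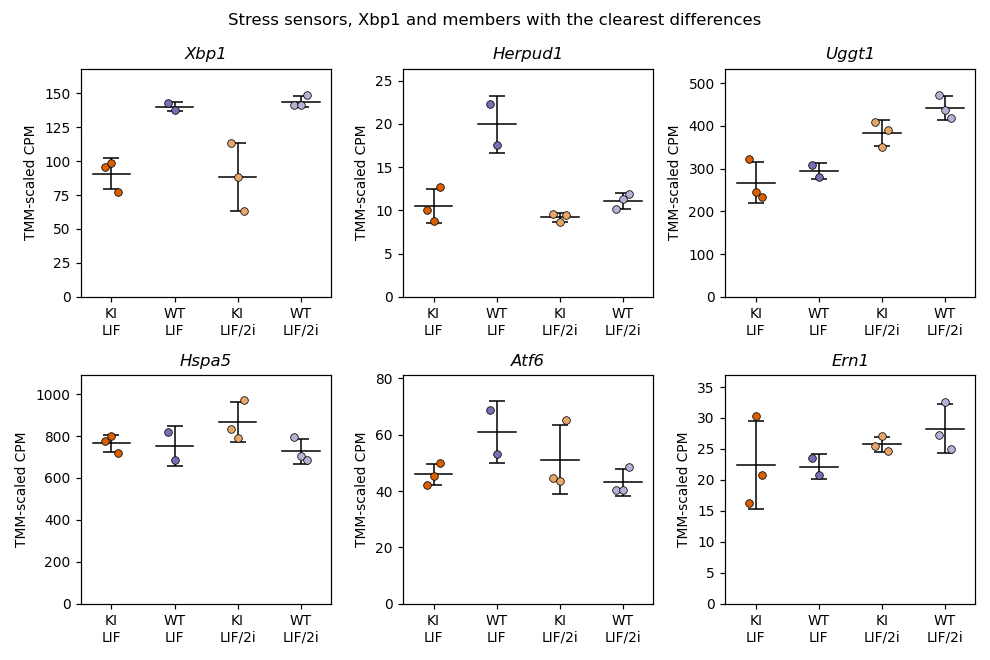
TMM-scaled CPM of Xbp1, Herpud1, Uggt1, Hspa5, Atf6 and Ern1 in each of the 11 samples (points), with group means and SD (bars; n = 3, and 2 in WT LIF). Xbp1 lies at 63.3 to 114 CPM in KI and 138 to 149 CPM in WT samples, Herpud1 is highest in WT LIF at 17.6 and 22.3 CPM, and Uggt1 is lower in LIF than in LIF/2i in both genotypes.

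The sensors Atf6 and Ern1 passed in no comparison. Atf6 had 42.2, 45.5 and 49.9 CPM in KI LIF, against 68.7 and 53.1 CPM in WT LIF. In LIF/2i it had 44.5, 43.6 and 65.3 CPM in KI, against 40.3, 40.4 and 48.7 CPM in WT. In LIF every KI sample was below both WT samples, and in LIF/2i the groups overlapped. The log2 fold change was -0.41 ± 0.21 in LIF (adjusted p = 0.531) and 0.25 ± 0.19 in LIF/2i (adjusted p = 0.484). Between media it was -0.15 ± 0.19 in KI (adjusted p = 0.694) and 0.50 ± 0.21 in WT (adjusted p = 0.14), where groups did not overlap. The interaction was -0.66 ± 0.28 (adjusted p = 0.818). Ern1 had 16.3, 30.3 and 20.7 CPM in KI LIF and 23.5 and 20.8 CPM in WT LIF. The LIF/2i values were 25.5, 27.0 and 24.7 CPM in KI and 27.2, 32.6 and 24.9 CPM in WT. Its KI and WT samples overlapped in both media.

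Among genes of ER-associated degradation, which returns misfolded proteins to the cytosol for the proteasome, Herpud1 (GRCm38 chr8:94386438-94395377, plus strand) passed between media in WT. It encodes a membrane protein of the HRD1 ubiquitin ligase complex. Herpud1 had 10.0, 8.76 and 12.7 CPM in KI LIF, against 22.3 and 17.6 CPM in WT LIF. In LIF/2i it had 9.61, 8.59 and 9.40 CPM in KI, against 10.1, 11.3 and 11.9 CPM in WT. The WT LIF samples stood above all others, and KI LIF samples overlapped both LIF/2i groups. Within each medium every KI sample was below every WT sample. The log2 fold change of LIF against LIF/2i was 0.17 ± 0.24 in KI (adjusted p = 0.728) and 0.85 ± 0.25 in WT (adjusted p = 0.0439). That of KI against WT was -0.94 ± 0.26 in LIF (adjusted p = 0.205) and -0.27 ± 0.23 in LIF/2i (adjusted p = 0.542). The interaction was -0.67 ± 0.35 (adjusted p = 0.849), so the medium effect is not shown to differ between genotypes.

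The WT call for Herpud1 lay close to the threshold. It did not pass without KI LIF replicates 1, 2 or 3, WT LIF replicate 2, KI LIF/2i replicate 2, or WT LIF/2i replicates 1, 2 or 3, with adjusted p between 0.0502 and 0.148, while the fold change stayed between 0.78 and 1.01 on the log2 scale. Between the WT LIF samples, Herpud1 was lower in replicate 2, where the feeder fibroblast markers summed to 404 CPM, than in the mean of replicates 1 and 3, where they summed to 37.1 CPM. Trophectoderm markers also differed between WT LIF and the other groups, with 351 and 457 CPM in WT LIF, 220 to 253 CPM in KI LIF, 94.3 to 225 CPM in KI LIF/2i and 132 to 158 CPM in WT LIF/2i. Their part in the level of Herpud1 was not tested. For Trib3, a target of the eIF2α branch, the log2 fold change of LIF against LIF/2i was 0.80 ± 0.28 in KI (adjusted p = 0.106) and 2.24 ± 0.31 in WT (adjusted p = 0.00126). For Atf4, the transcription factor of that branch, it was 0.00 ± 0.18 in KI (adjusted p = 0.998) and 0.67 ± 0.20 in WT (adjusted p = 0.0429). Of 5 listed genes of this branch, 2 passed in WT, both higher in LIF, where 13% of all genes passed. In WT 3 of the 5 had fold changes above 0 and 2 below 0, down to -0.54, and 1 of those below 0 had an unadjusted p under 0.05. In KI 0 of the 5 passed, where 9.06% of all genes did. In the interaction test 0 of the 5 passed, as did 0% of all genes. An unadjusted p under 0.05 was found for 2 of the 5, both below 0, against 6.03% of all genes. The medium effect on these genes is therefore not shown to differ between genotypes. The part of this branch in the level of Herpud1 was not tested.

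The other 8 degradation genes passed in no comparison. Edem1, Edem2 and Edem3 encode mannosidase-like proteins that mark glycoproteins for removal, Os9 a lectin that receives them, Sel1l and Syvn1 the core of the HRD1 ligase, and Derl1 and Derl2 membrane proteins of the exit channel. Os9 had the smallest unadjusted p among members higher in KI in LIF/2i. It had 45.0, 39.5 and 35.3 CPM in KI, above the 29.1, 34.1 and 32.8 CPM in WT, a log2 fold change of 0.32 ± 0.16 (adjusted p = 0.272). In LIF it had 30.7 to 33.6 CPM in KI, against 33.1 and 33.8 CPM in WT, and the groups overlapped. Edem3 had the smallest unadjusted p among interactions above 0 together with Hyou1, at 0.35 ± 0.22 and 0.34 ± 0.22, with an adjusted p of 0.902 for both.

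Translocon genes also passed in no comparison. Ssr1, a subunit of the translocon-associated protein complex, had 131, 135 and 143 CPM in KI LIF, against 177, 153 and 185 CPM in KI LIF/2i. No LIF sample reached the LIF/2i range, and the log2 fold change was -0.33 ± 0.13 (adjusted p = 0.148). In WT it had 131 and 137 CPM in LIF, inside the 126 to 165 CPM in LIF/2i. Sec61b, the small β subunit of the channel, had 0.346 to 2.35 CPM over the 11 samples, near the floor of 3 counts, which is worth 0.309 to 1.3 CPM depending on the library.

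KI replicate 1 stood apart from KI replicates 2 and 3 in the same direction in both media for 6 members. The criterion, at least 1.25-fold from both other KI replicates in each medium, was chosen after the values were seen. Edem1, Sel1l, Sec61a1, P4hb and Pdia6 were higher in it (5 of 33, 15.2%, against 8.31% of all genes tested), and Pdia4 was lower (1 of 33, 3.03%, against 9.2%). Sec61a1, the channel subunit of the translocon, had 426 CPM in KI LIF replicate 1 and 391 CPM in KI LIF/2i replicate 1, against 248 to 274 CPM in the other 4 KI samples and 237 to 268 CPM in WT samples. Edem1 had 135 and 154 CPM in KI replicate 1, against 74.0 to 84.3 CPM in the other KI samples and 98.9 to 108 CPM in WT samples. Pdia4, a disulfide isomerase, had 204 and 201 CPM, against 297 to 385 CPM in the other KI samples and 325 to 389 CPM in WT samples.

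For Sec61a1 and Pdia4 the other KI samples overlapped WT, and for Edem1 they lay below WT with replicate 1 above it. Without the KI replicate 1 libraries of both media, a choice made after seeing the data, 3 of 33 members passed between KI and WT in LIF/2i, where 11.9% of all genes did. These were Xbp1, P4hb and Pdia6, all lower. In LIF 0 passed, where 3.16% of all genes did. KI replicate 1 is also the KI replicate with the higher Y-linked levels given above, and how that relates to these genes was not tested.

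**Figure D4:**
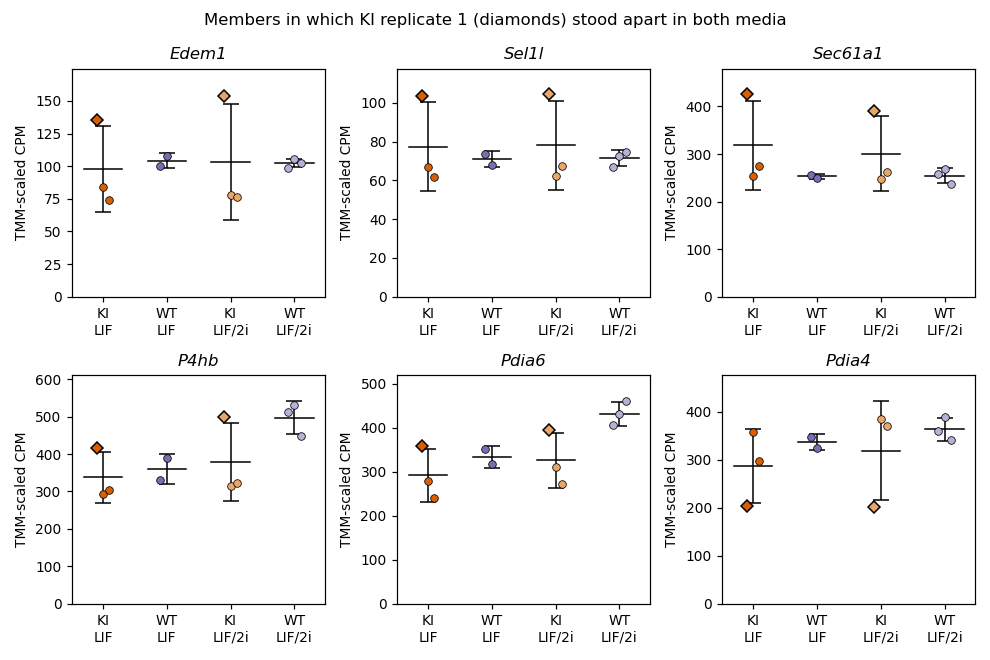
TMM-scaled CPM of the 6 members for which KI replicate 1 (diamonds) lay at least 1.25-fold from both other KI replicates in each medium, with group means and SD (bars; n = 3, and 2 in WT LIF). The diamond is the highest KI sample in 5 panels and the lowest in that of Pdia4, at 204 CPM in LIF and 201 CPM in LIF/2i.

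Other genes were counted from 8 lists of 121 genes, of which 119 were tested. Of the lists, 7 covered the secretory pathway and its stress response and 1 covered cytosolic and mitochondrial chaperones. Between KI and WT, 1 was higher and 0 lower in LIF/2i (0.84%, against 2.22% of all genes), and 0 passed in LIF, where 7 had an unadjusted p under 0.05 (5.88%, against 10.7% of all genes). The 1 gene was Dnajc10, an ER disulfide reductase with a J domain. It had 162, 142 and 172 CPM in KI LIF/2i, against 102, 114 and 86.7 CPM in WT LIF/2i, a log2 fold change of 0.65 ± 0.13 (adjusted p = 0.0334). Between LIF and LIF/2i, 5 were higher and 6 lower in KI (9.24% in all, against 9.06% of all genes), and 6 higher and 10 lower in WT (13.4%, against 13%), shares close to the background. The medians of the 119 were -0.12 in KI and -0.03 in WT. In the interaction test 0 passed, and 4 had an unadjusted p under 0.05 (3.36%, against 6.03% of all genes).

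Some of these calls were relatives of the 33 genes. Uggt2, the second glucosyltransferase of the folding cycle, had 18.7, 20.2 and 12.3 CPM in KI LIF, against 96.6, 64.5 and 110.3 CPM in KI LIF/2i. In WT it had 42.5 and 18.0 CPM in LIF, against 107, 94.2 and 71.8 CPM in LIF/2i. It fell in both genotypes, with log2 fold changes of -2.38 ± 0.33 in KI (adjusted p = 0.00146) and -1.59 ± 0.36 in WT (adjusted p = 0.0129). Among the 22 tested folding enzymes and co-chaperones outside the 33, Pdia5, a disulfide isomerase, also fell in both, with log2 fold changes of -0.79 ± 0.18 in KI and -1.06 ± 0.20 in WT. Fkbp10, a proline isomerase of collagen folding, and Clgn, a homologue of calnexin best known in the testis, rose in both, Fkbp10 by 2.75 ± 0.45 in KI and 3.76 ± 0.54 in WT, and Clgn by 2.44 ± 0.44 in KI and 2.08 ± 0.50 in WT.

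Levels of Fkbp10 are set beside those of the collagen gene Col1a1, a fibroblast marker. Fkbp10 had 22.2 to 42.3 CPM in KI LIF, where Col1a1 had 38.1 to 72.8 CPM. In WT LIF it had 12.3 CPM in the mean of replicates 1 and 3 and 36.7 CPM in replicate 2, where Col1a1 had 13.0 and 169 CPM. In LIF/2i it had 3.13 to 6.38 CPM in KI and 1.20 to 3.04 CPM in WT, and Col1a1 5.12 to 10.6 CPM in KI and 1.42 to 3.04 CPM in WT. The part of fibroblast-like cells in the level of Fkbp10 was not tested.

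Among 18 other sensors and regulators, Creb3l1, a membrane-bound transcription factor processed like ATF6, rose in LIF by 1.79 ± 0.33 in KI (adjusted p = 0.00591) and 2.29 ± 0.37 in WT (adjusted p = 0.00251). It had 15.2 to 22.5 CPM in KI LIF and 5.04 to 5.60 CPM in KI LIF/2i. In WT LIF it had 11.7 CPM in the mean of replicates 1 and 3, where the fibroblast markers summed to 37.1 CPM, and 22.3 CPM in replicate 2, where they summed to 404 CPM, against 2.69 to 5.17 CPM in WT LIF/2i. The part of fibroblast-like cells in the level of Creb3l1 was not tested either. Creb3l2, its relative, fell in WT with a log2 fold change of -1.91 ± 0.49 (adjusted p = 0.025), and its value in KI was -1.35 ± 0.47 (adjusted p = 0.102). Among 18 other degradation genes, Marchf6, which encodes a ubiquitin ligase, rose in LIF in KI by 0.38 ± 0.11.

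Genes of glycan transfer and of export from the ER contributed further calls. Magt1, 1 of 10 oligosaccharyltransferase genes, fell in LIF, with log2 fold changes of -0.71 ± 0.17 in KI and -1.03 ± 0.19 in WT. Sec23a, 1 of 16 genes of the export coat, fell with values of -0.72 ± 0.17 in KI and -1.03 ± 0.19 in WT, and Lman1, a cargo receptor, fell in WT with -0.52 ± 0.12. Spcs3, a signal peptidase subunit and 1 of 14 other translocation genes, fell with -0.67 ± 0.14 in KI and -0.52 ± 0.15 in WT. Among 16 tested cytosolic and mitochondrial chaperones only Hsph1 passed, lower in LIF with -0.65 ± 0.18 in KI and -0.89 ± 0.20 in WT. Ddit3, which encodes CHOP, had 1.38 to 9.10 CPM over the 11 samples and passed in no comparison.

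**Figure D5:**
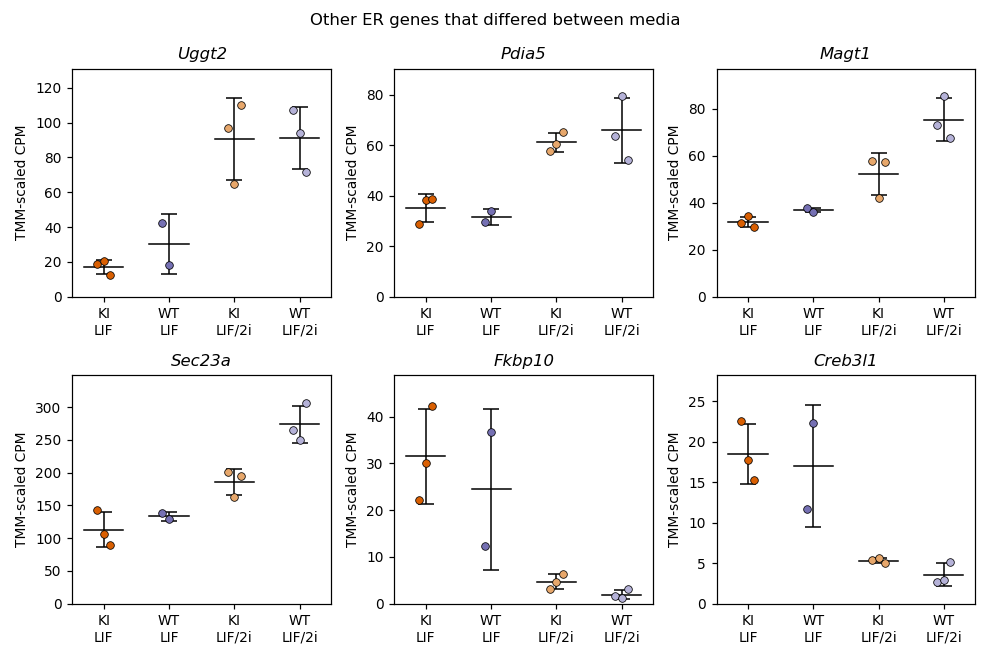
TMM-scaled CPM of 6 secretory pathway genes outside the 33 in each of the 11 samples (points), with group means and SD (bars; n = 3, and 2 in WT LIF). Uggt2, Pdia5, Magt1 and Sec23a are lower in LIF than in LIF/2i in both genotypes, and Fkbp10 and Creb3l1 are higher.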

How the data were processed

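The authors deposited raw counts per gene in 1 table of 12 libraries. Reads were counted in the coding region of a single transcript for each gene, per the file headers. Tools listed in the submitters' processing notes are UMI-tools 1.0.1, Bowtie 1.3.0 and cutadapt 3.4. The build, annotation, counting tool, strand setting and use of molecular identifiers were not given in the sources used here.

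Low counts were filtered with filterByExpr (minimum count 10), and the rest scaled by TMM. The model (glmQLFit, robust; edgeR 4.0.16 under R 4.3.3) had 1 mean per group over 11 samples. The plan had 12, before the noise-level agreement of WT LIF replicates 1 and 3 led to the use of their mean. Contrasts used the two-sided quasi-likelihood F test, adjusted over all 13239 genes (Benjamini-Hochberg) at 0.05. Standard errors come from the F statistic. The script was tested on simulated data. Depth sets the floor of a library at 3 counts, for counting error only.

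Members and lists were chosen with earlier results of these data known. Members named are those past the threshold in any comparison, the 2 with the smallest unadjusted p in each direction of each comparison, and Hspa5, Hsp90b1, Xbp1, Atf6, Ern1 and Herpud1. Other pathway genes named are up to 4 called genes per list and comparison by p, and Atf4, Ddit3 and Trib3. Other genes, and further members given as ranges or examples, were chosen after their values were seen.

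Alternatives were DESeq2 1.42.0, limma-voom (limma 3.58.1), other scalings and filters, replicate blocks and leaving out libraries. Same-numbered KI samples deviated together across media (correlations 0.525, 0.404 and 0.244), a pairing seen in the data only; in other comparisons at least 1 pair was under 0.1. Coding lengths and shared sequence come from GENCODE M21, where the transcripts of Xbp1 and Pdia6 were matched by symbol. Promoters are from RefSeq (GRCm38.p6). One gene that the naming rule selects among the other degradation genes is not reported here.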

Additional observations from a re-analysis of the deposited data

How the results depend on the processing

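Counts of members past the threshold were recomputed under each alternative. For KI against WT in LIF/2i the count of 0 became 1 (Xbp1 each time) with DESeq2 (6.92% of all genes called), with 12 libraries (4.03%) and with the replicate block over 12 libraries (4.37%), 3 with the replicate block for KI (Xbp1, P4hb, Pdia6; 10.3%), 3 without the KI replicate 1 libraries of both media (11.9%), and 0 to 2 with single libraries left out, where the 2 (Xbp1, P4hb) came without KI LIF/2i replicate 1 (7.58%). In LIF the 0 became 1 with 12 libraries (Herpud1, adjusted p = 0.0495; 1.1% of all genes) and 1 with the replicate block for KI (Xbp1; 1.91%). For LIF against LIF/2i in WT the 2 became 1 without the filter (9.37%), 4 with 12 libraries (21.1%), 5 with the replicate block over 12 libraries (22%), 5 with that for KI (20.2%), 0 without the agreeing WT LIF pair (5.6%), and 0 to 2 with single libraries left out (2.93% to 16.4%). Without that pair or WT LIF replicate 2, the lone WT LIF sample is assumed to vary like the other groups. The WT count also became 3 with only the groups compared (16.8% of all genes) and 3 without the KI replicate 1 libraries of both media (19.5%). In KI the 1 became 0 with library totals (8.54%), with only the groups compared (6.19%) and without the agreeing WT LIF pair (7.49%), and 0 to 1 with single libraries left out (3.74% to 10.1%). The interaction count was 0 under every alternative run. Of 548 values of named members, 506 kept direction and side of the threshold, 24 lost a call, 13 gained one and 5 changed sign. Those 5 were small: Xbp1 between media was 0.0337 in WT with library totals, and in KI it was -0.000739, -0.0319 and -0.149 without KI LIF replicates 1 and 2 and KI LIF/2i replicate 3, and ran from -0.149 to 0.258 with single libraries left out, where Edem3 ran from -0.0203 to 0.228. The cause was not tested. No scaling moved the median of all genes by more than 0.1 on the log2 scale. Low counts limit Sec61b and Dnajb9 most, and 68.3% and 51.4% of their 25-base windows also occur in other genes. WT LIF rests on 2 samples.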
